A study of Homo sapiens with 2 samples.

Results

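Small Cajal body RNAs (scaRNAs) and the proteins that form Cajal bodies or carry RNAs to them were compared between HEK293 cells lacking LARP7 and their parental cells. The members were all 25 genes whose symbol begins with SCARNA, which carry 24 symbols because SCARNA4 has 2 entries, and the 7 protein-coding genes COIL, NOLC1, TGS1, SMN1, SMN2, GEMIN2 and GEMIN5, 32 of the 57894 genes with a transcript in the deposited tables. Total RNA was sequenced from LARP7 knockout cells, which are the single clone 1-11, and from unmodified parental HEK293 cells, a line of human embryonic kidney origin, with 2 libraries each. Both groups were grown in the same medium, and the labels name no treatment. Since the knockout is 1 clone, what else sets it apart from parental HEK293 cells cannot be told apart from the loss of LARP7. Separate cultures are not stated for the 2 libraries of either group, and the spread behind each p-value may therefore be technical. In bulk RNA, a change in the share of cells and a change in RNA per cell cannot be told apart.

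Cajal bodies are nuclear bodies built around coilin in which small nuclear ribonucleoproteins mature. scaRNAs stay in these bodies and guide the modification of spliceosomal snRNAs: C/D scaRNAs base-pair with the snRNA to direct 2′-O-methylation, H/ACA scaRNAs direct pseudouridylation, and mixed scaRNAs carry both domains. Most human scaRNAs are cut out of introns of other genes. LARP7 is a La-related protein that binds the 3′ end of 7SK RNA and also contacts U6 snRNA, whose modification is guided by C/D small nucleolar RNAs.

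The scaRNAs on which the values below rest differ in domain and in the letters known to matter for them, so examples of each class are shown, read from the GENCODE v29 transcripts (GRCh38) on the strand of the gene. Capitals mark TGAG, the letters of the CAB box that keeps H/ACA scaRNAs in Cajal bodies, TGATGA, the core letters of a C box, and ACA placed 3 bases before the 3′ end, the end box of H/ACA RNAs. TGATGA and TGAG can overlap, and only the sense strand was searched. SCARNA2 is a C/D scaRNA of 420 bases at chr1:109100193-109100612 on the plus strand. It is shown from base 1 to base 300, and its 1 TGATGA lies beyond that stretch:
SCARNA2: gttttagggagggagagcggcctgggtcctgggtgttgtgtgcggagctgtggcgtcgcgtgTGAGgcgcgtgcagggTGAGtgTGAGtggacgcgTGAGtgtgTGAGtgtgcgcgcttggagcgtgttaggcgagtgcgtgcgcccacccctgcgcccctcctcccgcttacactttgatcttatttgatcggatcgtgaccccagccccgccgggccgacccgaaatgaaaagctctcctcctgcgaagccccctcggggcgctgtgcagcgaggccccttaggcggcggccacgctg
The mixed scaRNAs shown are, SCARNA5 of 276 bases at chr2:233275727-233276002 on the plus strand and SCARNA12 of 270 bases at chr12:6967337-6967606 on the minus strand:
SCARNA5: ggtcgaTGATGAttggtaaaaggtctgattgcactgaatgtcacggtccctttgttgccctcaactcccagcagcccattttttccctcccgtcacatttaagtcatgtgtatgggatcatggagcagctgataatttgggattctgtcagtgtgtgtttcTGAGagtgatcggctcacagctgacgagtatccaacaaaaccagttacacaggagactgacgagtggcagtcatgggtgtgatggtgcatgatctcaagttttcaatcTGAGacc
SCARNA12: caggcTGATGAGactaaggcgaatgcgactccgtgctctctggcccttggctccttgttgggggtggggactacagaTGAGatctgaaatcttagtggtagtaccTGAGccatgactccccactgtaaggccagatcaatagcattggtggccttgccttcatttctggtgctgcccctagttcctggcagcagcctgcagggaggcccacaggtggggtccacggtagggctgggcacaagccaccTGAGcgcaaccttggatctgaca
The H/ACA scaRNAs shown are SCARNA13 of 275 bases at chr14:95533355-95533629 on the minus strand, a tandem of H/ACA domains, and SCARNA16 of 187 bases at chr17:77089307-77089493 on the plus strand:
SCARNA13: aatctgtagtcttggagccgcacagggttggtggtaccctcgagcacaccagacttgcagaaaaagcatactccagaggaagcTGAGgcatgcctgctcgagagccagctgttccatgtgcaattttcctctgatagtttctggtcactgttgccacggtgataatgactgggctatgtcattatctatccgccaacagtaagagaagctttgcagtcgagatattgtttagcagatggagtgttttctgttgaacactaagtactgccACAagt
SCARNA16: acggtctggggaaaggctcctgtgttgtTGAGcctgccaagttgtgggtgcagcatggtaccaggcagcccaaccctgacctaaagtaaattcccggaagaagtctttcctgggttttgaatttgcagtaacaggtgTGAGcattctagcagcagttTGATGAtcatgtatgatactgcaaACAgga
SCARNA9, a C/D scaRNA of 353 bases at chr11:93721513-93721865 on the plus strand, holds a stretch of TG repeats of 34 bases, in capitals here between bases 115 and 228:
SCARNA9: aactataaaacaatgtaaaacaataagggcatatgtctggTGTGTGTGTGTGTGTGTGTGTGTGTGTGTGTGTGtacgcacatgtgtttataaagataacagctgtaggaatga

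The classes differed in these letters across all 25 scaRNA genes. ACA ended 14 of the 17 H/ACA genes, 0 of the 4 C/D genes and 0 of the 4 mixed genes. TGATGA was present in 3 of 4 C/D genes, 4 of 4 mixed genes and 4 of 17 H/ACA genes. TGAG was present in 18 of the 25. Short words such as TGAG are common by length alone: among all annotated transcripts within 10 bases of the length of SCARNA13, 79.0% held TGAG, 13.9% held TGATGA and 1.35% had ACA at that place. For the length of SCARNA2 these shares were 89.3%, 18.4% and 1.99%. A TG repeat at least as long as that of SCARNA9 occurred in 0.108% of 1847 transcripts within 10 bases of its length. This set includes SCARNA9 itself. A TG repeat of 10 bases or more occurred in 0.541% of the same set. Among the scaRNA genes, 1 other, SCARNA7, held a TG repeat of 10 bases, and its length lies outside that set. These matches describe the letters in the annotated transcripts and were not tested for function.

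The depth was 16838501 and 16218587 estimated reads in the knockout libraries and 18483220 and 12851942 in the parental libraries. Levels are given as CPM, reads per library size after TMM scaling, fold changes are knockout over parental, and a gene was called at a Benjamini-Hochberg adjusted p under 0.05 in edgeR's quasi-likelihood test over all 18484 genes with enough reads. LARP7 mRNA had 36.1 and 31.9 CPM in the knockout and 59.8 and 46.5 CPM in parental cells, a log2 fold change of -0.65 ± 0.16 (SE) with an adjusted p of 0.135. 7SK RNA, which LARP7 stabilises, had 169 and 205 CPM in the knockout and 5570 and 5480 CPM in parental cells, 29.6-fold lower in the knockout with an adjusted p of 1.13e-06. All 7 HEK293 markers were tested, 5 had a log2 fold change above 0 and 1 was called, the neurofilament gene NEFM, which fell (log2 fold change -2.91 ± 0.22, SE, adjusted p = 0.00164). The intermediate filament genes INA (0.53, adjusted p = 0.269) and VIM (0.29, adjusted p = 0.303) were higher in both knockout libraries and were not called. Of 9 markers of other cell types 4 had no read, and the 9 summed to 8.41 and 7.81 CPM in the knockout and 6.19 and 6.99 CPM in parental cells, mostly COL1A1. The median of transcript length minus effective length over long transcripts follows fragment length. It was 232.9 and 225.8 bases in the knockout libraries and 217.0 and 206.7 bases in the parental ones. Small RNA genes took 0.83% and 0.98% of the reads in the knockout and 1.41% and 2.36% in parental cells. Both measures separated the knockout from the parental libraries. The small RNA share counts 7SK itself, with 2904 and 3457 reads in the knockout and 98057 and 69038 reads in parental cells. The share without 7SK was not computed, so a separation beyond 7SK is not shown. Parental replicate 2 had the lowest depth and the highest small RNA share of the 4. The part of these differences in the results below was not tested.

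The 8 tested scaRNAs of 260 bases or more had log2 fold changes above 0, in 7 of them without overlap between the groups, and none of them was called. The 25 scaRNA genes together had 12570 and 13403 reads in the knockout libraries and 8071 and 7010 reads in the parental libraries. Their summed level was 763 ± 42.0 CPM in the knockout and 508 ± 69.3 CPM in parental cells (SD, n = 2 each), a ratio of 1.5. An exact two-sided permutation test of that sum gave p = 0.333, the smallest value that 2 against 2 libraries allow. SCARNA2 alone made up 48.4% and 45.7% of the scaRNA reads in the knockout and 45.9% and 44.3% in parental cells. Without SCARNA2 the other 24 genes summed to 404 ± 36.8 CPM in the knockout and 279 ± 44.1 CPM in parental cells (SD, n = 2 each), a ratio of 1.45, so the difference in the sum was not that of the most abundant scaRNA alone.

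Of the 25 scaRNA genes 10 passed the filter on low counts and 15 did not. Of the 10, 0 were called, against a background of 0.833% of all genes tested called in either direction and 0.33% called higher. At an unadjusted p under 0.05, 7 of the 10 were higher in the knockout and 0 were lower, where 6.58% of all genes tested were higher at that threshold. The same 7 genes had both knockout libraries above both parental libraries, which held for 23.5% of all genes tested. DESeq2 called 5 of them higher, SCARNA2, SCARNA7, SCARNA9, SCARNA10 and SCARNA13, against a background of 1.23%. limma voom called 1, SCARNA2, against a background of 0.314%. Without parental replicate 2 edgeR called 9 of the 10 higher, all but SCARNA1, where 4.33% of all genes were called higher. Without parental replicate 1 it called 5 of 11 tested, the same 5 genes as DESeq2, where 5.71% of all genes were called higher, and without either knockout library it called 0. When a library is left out, the lone library of its group is assumed to vary like the other group.

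**Figure D1:**
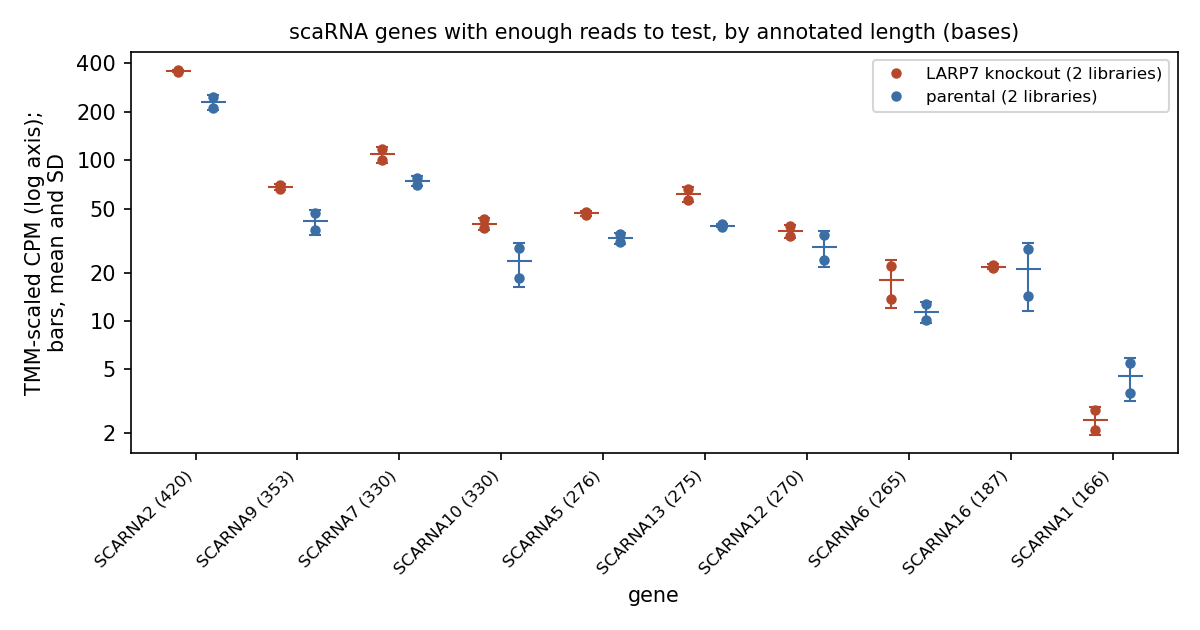
Level of the 10 scaRNA genes with enough reads to test, in TMM-scaled CPM on a log axis, ordered by annotated length in bases. Points are the 2 LARP7 knockout libraries, left, and the 2 parental libraries, right; the horizontal mark and bars are the mean and SD. In the 8 genes of 260 bases or more the knockout mean is the higher one, and for SCARNA12 and SCARNA16 the groups overlap.

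The C/D scaRNAs guide 2′-O-methylation, SCARNA2 and SCARNA9 on the U2 snRNA. SCARNA2, which is transcribed from its own promoter, had 355 and 363 CPM in the knockout and 211 and 246 CPM in parental cells. It was 1.57-fold higher in the knockout, a log2 fold change of 0.65 ± 0.12 (SE) with an adjusted p of 0.0532 in edgeR. SCARNA9, the gene with the long TG repeat, had 65.8 and 69.8 CPM in the knockout and 36.6 and 46.9 CPM in parental cells, a log2 fold change of 0.70 ± 0.15 (SE, adjusted p = 0.0883). In both genes the knockout libraries lay close together and above the parental ones. SCARNA7, 330 bases at chr3:160514907-160515236 on the minus strand, had 100 and 117 CPM in the knockout and 70.5 and 77.9 CPM in parental cells, a log2 fold change of 0.55 ± 0.13 (SE, adjusted p = 0.130). The groups did not overlap in any of the 3 C/D genes tested, and the annotated entry of the fourth C/D gene, SCARNA17, held no read.

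The mixed scaRNAs carry a C/D and an H/ACA domain and were all tested. SCARNA10, whose guide domains act on the U5 snRNA, lies at chr12:6510222-6510551 on the plus strand and is 330 bases long. It had 37.7 and 42.8 CPM in the knockout and 18.4 and 28.6 CPM in parental cells, a log2 fold change of 0.79 ± 0.22 (SE, adjusted p = 0.159), which was 0.49 without parental replicate 1 and 1.13 without parental replicate 2. SCARNA5 had 45.6 and 47.6 CPM in the knockout and 31.0 and 34.7 CPM in parental cells, a log2 fold change of 0.51 ± 0.14 (SE, adjusted p = 0.165). Both genes were higher in each knockout library, and in SCARNA10 the parental libraries differed more from each other than the knockout ones did. SCARNA6, 265 bases at chr2:233288676-233288940 further along the same host gene as SCARNA5, had 13.8 and 22.1 CPM in the knockout and 10.2 and 12.7 CPM in parental cells, a log2 fold change of 0.66 ± 0.26 (SE, adjusted p = 0.310). SCARNA12 had 34.0 and 38.8 CPM in the knockout and 23.9 and 34.1 CPM in parental cells, a log2 fold change of 0.34 ± 0.19 (SE, adjusted p = 0.486). For SCARNA12 the lower knockout library lay just below the higher parental one, so these groups overlapped.

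The H/ACA scaRNAs guide pseudouridylation and form the largest class, but 3 of its 17 genes were tested. SCARNA13 had 56.7 and 66.4 CPM in the knockout and 38.5 and 39.9 CPM in parental cells, a log2 fold change of 0.65 ± 0.14 (SE, adjusted p = 0.0825). SCARNA16 had 21.3 and 22.3 CPM in the knockout and 14.4 and 27.9 CPM in parental cells, a log2 fold change of 0.05 ± 0.28 (SE, adjusted p = 0.960). Both knockout values of SCARNA16 lay between the parental ones, and its direction turned to -0.36 without parental replicate 1. SCARNA1, 166 bases at chr1:27834401-27834566 and with under 100 reads in each library, had 2.10 and 2.78 CPM in the knockout and 3.58 and 5.48 CPM in parental cells, a log2 fold change of -0.88 ± 0.39 (SE, adjusted p = 0.356). It was the one tested scaRNA with both knockout libraries below both parental libraries, which held for 22.7% of all genes tested.

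The other 15 scaRNA genes were too low to test. Their annotated transcripts are 125 to 144 bases long, and 14 of them belong to the H/ACA class. Of the 15 genes 7 had no read in any library, and the other 8 had at most 12 reads in a library. Among those 8 are both entries of SCARNA4, which differ by a base at 1 end and between which reads are divided by the estimate. These RNAs are shorter than the fragment length of the libraries as measured above, so a low count here does not show that the RNA is absent from the cells.

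Levels of different genes can be compared only per length, in TPM. In the first and second knockout library SCARNA2 had 1550 and 1500 TPM, against 720 and 637 TPM in the parental libraries, the highest level of the scaRNAs in all 4 libraries. SCARNA7 came next in both knockout libraries with 731 and 799 TPM, against 394 and 320 TPM in parental cells. SCARNA16 had 672 and 655 TPM in the knockout and 335 and 433 TPM in parental cells, and SCARNA13 had 644 and 702 TPM in the knockout and 327 and 244 TPM in parental cells, so the order of these 3 was not the same in every library. On this scale the scaRNA genes summed to 5510 and 5700 TPM in the knockout and 2770 and 2590 TPM in parental cells, a wider gap than in CPM. TPM divides by the effective length, which for RNAs near the fragment length falls as fragments lengthen, and it is a share of a total in which small RNA genes took 24.8% and 27.7% in the knockout and 29.4% and 38.7% in parental cells. 7SK alone took 0.123% and 0.139% of that total in the knockout and 3.09% and 2.24% in parental cells. With the effective length as an offset in edgeR, the log2 fold changes of the 8 scaRNAs of 260 bases or more were 0.53 to 0.93 and 0 of the 10 were called.

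The longer scaRNAs lay above 0 while SCARNA1 and most other small guide RNAs lay below, a difference between families that was not tested. The 8 scaRNA genes of 260 bases or more had log2 fold changes from 0.34 to 0.79 with a median of 0.65, and the 2 under 200 bases had a median of -0.42, where the median of all genes tested was 0.002. Small nucleolar RNAs, which share the C/D and H/ACA architecture but act in the nucleolus, mostly had negative log2 fold changes. Of 46 SNORA genes tested 5 had a log2 fold change above 0, with a median of -0.88. Of 23 SNORD genes tested 1 was above 0, with a median of -1.29, and 0 were called in either family, while 10 SNORA and 14 SNORD genes were lower at an unadjusted p under 0.05, which held for 7.67% of all genes tested. Genes were also split by the longest annotated transcript, with overlapping ranges and no test. SNORA genes under 200 bases had a median of -0.97 (39 genes) and longer ones a median of -0.14 (7 genes). SNORD genes under 200 bases had a median of -1.39 (17 genes) and longer ones a median of -0.74 (6 genes). The longer SNORD genes include the copies SNORD3A, SNORD3B-1, SNORD3B-2 and SNORD3C, annotated at 581 to 791 bases. Annotated length need not be the length of the RNA.

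**Figure D2:**
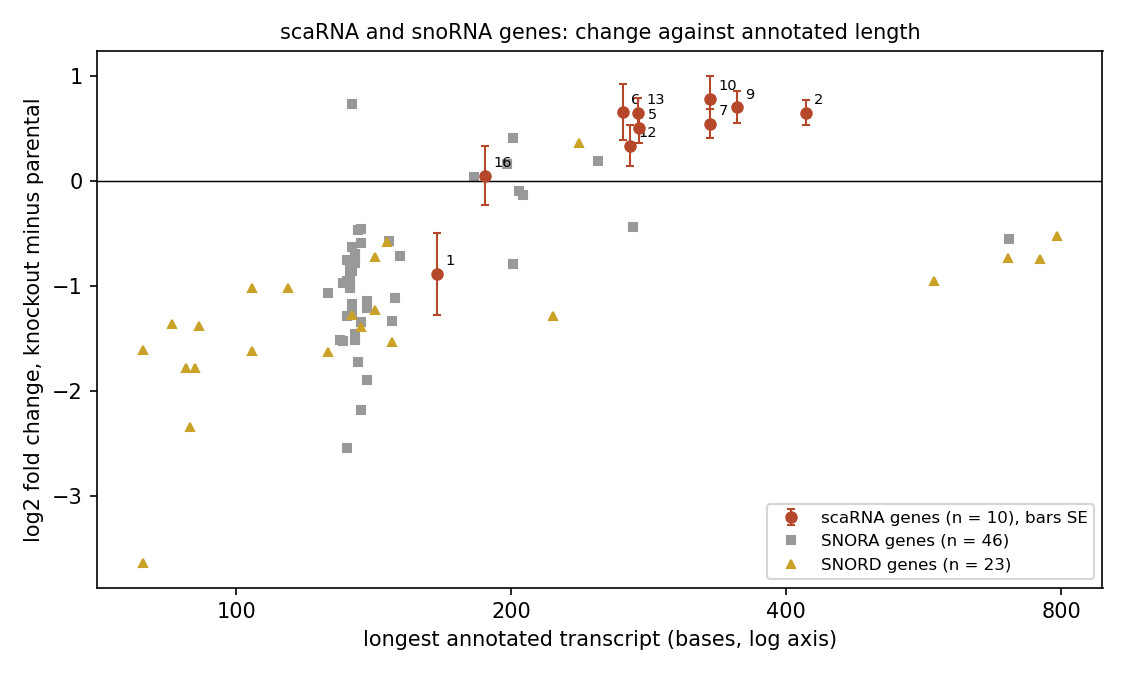
Log2 fold change, knockout minus parental, against the longest annotated transcript in bases on a log axis, for the 10 scaRNA genes tested (numbers give the SCARNA number, bars are SE), 46 SNORA genes and 23 SNORD genes. The scaRNAs of 260 bases or more sit between 0.34 and 0.79, while most snoRNA genes lie below 0.

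Small RNAs of the same length as the long scaRNAs did not share one direction. Of 16 other small RNA genes of 260 to 430 bases, leaving out 7SK and its copies, 5 had a log2 fold change above 0 and the median was -0.63. RMRP, the RNA of RNase MRP, was called lower, with 3190 and 3490 CPM in the knockout and 5830 and 5540 CPM in parental cells (log2 fold change -0.77 ± 0.08, SE, adjusted p = 0.00615). RN7SL2, a signal recognition particle RNA, was higher, with 2070 and 1950 CPM in the knockout and 1450 and 1400 CPM in parental cells (log2 fold change 0.50 ± 0.09, SE, adjusted p = 0.053), and was not called. The 16 include further 7SL genes, between which reads can be divided, so they are not independent. RN7SL3 was higher (log2 fold change 0.53 ± 0.13, SE, adjusted p = 0.121). RN7SL4P (-0.53 ± 0.21, adjusted p = 0.300) and RN7SL5P (-0.75 ± 0.23, adjusted p = 0.193) were lower, and none of these was called. The genes of the 16 not named here had lower levels. The RNAs named here were picked with their values known. The difference between the scaRNAs and these genes was not tested.

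Reads of several scaRNA loci are divided with other annotated transcripts of the same strand. SCARNA2 lies wholly inside the lincRNA AL356488.2, a 427-base transcript with 59.0 and 60.5 reads in the knockout libraries and 31.2 and 264 reads in the parental ones. The second parental library is the high one, so part of its reads of this locus went to the other name. Summed over both names the locus had 6148 and 6190 reads in the knockout and 3739 and 3366 reads in parental cells, a log2 fold change of 0.60 ± 0.14 (SE, adjusted p = 0.106). SCARNA10 shares 248 of its 330 bases with AC006064.5, and this locus summed to 847 and 892 reads in the knockout and 539 and 468 reads in parental cells, a log2 fold change of 0.60 ± 0.15 (SE, adjusted p = 0.134) in place of 0.79. SCARNA12 shares bases with a PHB2 transcript and SCARNA16 with SNHG20, and the summed log2 fold changes were 0.31 for SCARNA12 and -0.03 for SCARNA16. The SNHG20 transcript is 1028 bases long against 187 for SCARNA16. It had 594 and 797 reads in the knockout and 682 and 589 in parental cells, more than the SCARNA16 entry in each library. The sum for SCARNA16 is therefore mostly that of the longer transcript. SCARNA17 lies within a 421-base transcript of SNHG22, which had 21.1 and 24.3 CPM in the knockout and 14.8 and 19.8 CPM in parental cells (log2 fold change 0.40 ± 0.20, SE, adjusted p = 0.424), so its empty entry does not show that the RNA was missing. The empty entry of SCARNA15, 127 bases long, lies within a 4325-base transcript of AC105339.2. That transcript had 25.7 and 23.3 CPM in the knockout and 23.6 and 24.5 CPM in parental cells, a log2 fold change of 0.03 ± 0.16 (SE, adjusted p = 0.964). At that length its value is not an estimate for SCARNA15. SCARNA9 shares 69 and 80 of its 353 bases with the snoRNA entries RF00493 and RF00494 on the same strand. These shorter overlaps were left out of the locus sums. An exon of GLRX5 lies opposite 127 of the 275 bases of SCARNA13, and the strand setting of the counting is not given in the sources used here.

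Because most scaRNAs are released from introns, their levels were set beside those of the host genes. The host was taken as the longest protein-coding gene containing the scaRNA on the same strand, or else the longest noncoding one. A host held 24 of the 25 scaRNA genes, 21 of them in protein-coding genes. SCARNA2 had none, since short genes were not taken as hosts, which left out the lincRNA AL356488.2 that contains it. Of the 21 host genes tested 0 were called, 2 had an unadjusted p under 0.05 (CHD3, higher, and SNHG21, lower, where 14.3% of all genes tested passed), and the median log2 fold change was 0.015. ATG16L1, the host of SCARNA5 and SCARNA6 and a part of the autophagy machinery, had 28.2 and 27.0 CPM in the knockout and 25.4 and 21.1 CPM in parental cells (log2 fold change 0.25 ± 0.17, SE, adjusted p = 0.563). SNHG10, the noncoding host of SCARNA13, had 13.7 and 14.1 CPM in the knockout and 15.4 and 17.5 CPM in parental cells (log2 fold change -0.24 ± 0.19, SE, adjusted p = 0.616). NCAPD2, the condensin subunit gene that holds SCARNA10, had a log2 fold change of 0.16 ± 0.11, and CEP295, the centriole gene that holds SCARNA9, one of 0.24 ± 0.13 (SE each). The importin gene KPNA4 around SCARNA7 had 0.10 ± 0.17, the prohibitin gene PHB2 around SCARNA12 had -0.12 ± 0.13, and SEC14L1 around SCARNA16 had -0.02 ± 0.13 (log2 fold changes with SE). All 187 bases of SCARNA16 also lie in exons of the noncoding gene SNHG20. SCARNA16 was set beside SEC14L1 by the rule above and was not compared with SNHG20 as a host.

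The scaRNA had the higher log2 fold change of the pair in all 8 pairs with values in full. For SCARNA16 this did not hold with the locus sum (-0.025 against -0.018 for SEC14L1) or without parental replicate 1 (-0.36 against 0.05). Per library, the log2 ratio of scaRNA to host CPM was higher in both knockout libraries for 3 pairs and overlapped for the other 5. For the CPM of single genes such an order held for 23.5% of all genes tested. Its share over other gene pairs was not computed. For SCARNA13 over SNHG10 the log2 ratio was 2.05 and 2.23 in the knockout and 1.32 and 1.19 in parental cells. For SCARNA10 over NCAPD2 it was -2.59 and -2.33 in the knockout and -3.45 and -2.77 in parental cells. For SCARNA9 over CEP295 it was -1.46 and -1.33 in the knockout and -2.15 and -1.57 in parental cells. The knockout minus parental difference of the ratio was 0.14 to 0.89 over the 8 pairs with a median of 0.44, and the median was 0.098 without parental replicate 1 and 0.74 without parental replicate 2. These ratios were not tested, and SCARNA5 and SCARNA6 share a host.

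**Figure D3:**
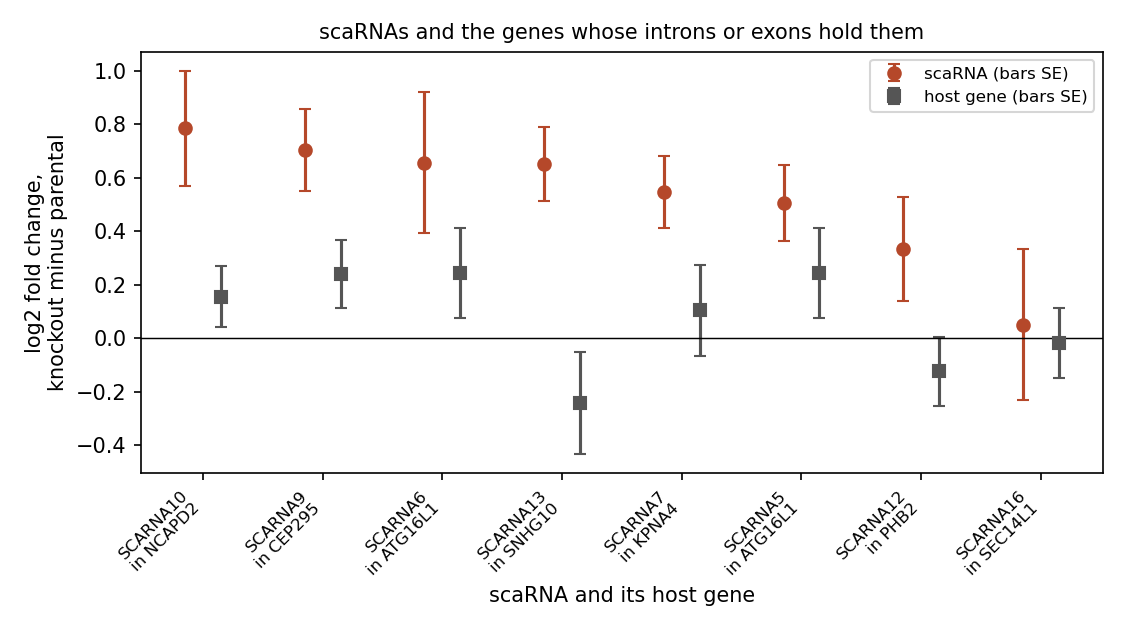
Log2 fold change, knockout minus parental, of 8 scaRNAs (circles) and of the host gene that contains each on the same strand (squares), with SE as bars. Each scaRNA lies above its host, the hosts lie between -0.24 and 0.25, and SCARNA16 is close to its host.

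The protein factors of the Cajal body and of snRNA maturation gave no call. Of the 7, 0 were called and 0 had an unadjusted p under 0.05 in edgeR, where these shares were 0.833% and 14.3% over all genes tested, so a count of 0 among 7 genes does not set them apart. DESeq2 and limma voom also called 0 of them. Their log2 fold changes ran from -0.25 to 0.22 with a median of 0.08. Coilin, the scaffold of the body (COIL, chr17:56938187-56961054, minus strand), had 86.3 and 78.9 CPM in the knockout and 80.6 and 63.6 CPM in parental cells, a log2 fold change of 0.19 ± 0.15 (SE, adjusted p = 0.604). The knockout values lay close to the first parental library, and parental replicate 2 was the low one.

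NOLC1 (Nopp140), a chaperone that moves between nucleolus and Cajal body and binds box C/D and H/ACA particles, had 345 and 333 CPM in the knockout and 441 and 367 CPM in parental cells. Both knockout libraries were below both parental ones, a log2 fold change of -0.25 ± 0.13 (SE, adjusted p = 0.414). TGS1, the enzyme that adds the trimethylguanosine cap to snRNAs, had 136 and 133 CPM in the knockout and 128 and 107 CPM in parental cells, a log2 fold change of 0.19 ± 0.13 (SE, adjusted p = 0.564). TGS1 was the one factor of the 7 with both knockout libraries above both parental libraries, which held for 23.5% of all genes tested. The gap was smaller than the difference between the parental libraries. NOLC1 and SMN2 were the 2 factors with the reverse order, which held for 22.7% of all genes tested. These counts among 7 genes do not set the factors apart.

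The SMN complex assembles Sm rings on snRNAs before they return to the Cajal body. SMN1 (chr5:70925030-70953942) had 58.9 and 52.8 CPM in the knockout and 60.8 and 45.9 CPM in parental cells, a log2 fold change of 0.06 ± 0.16 (SE, adjusted p = 0.905). SMN2 (chr5:70049612-70078522), its near-identical copy, had 42.4 and 49.0 CPM in the knockout and 53.4 and 52.6 CPM in parental cells, a log2 fold change of -0.21 ± 0.14 (SE, adjusted p = 0.532). The split of reads between these copies is uncertain, and their summed reads had a log2 fold change of -0.07. GEMIN5, which recognises snRNAs for the complex, had 107 and 95.3 CPM in the knockout and 102 and 71.0 CPM in parental cells, a log2 fold change of 0.22 ± 0.18 (SE, adjusted p = 0.627). GEMIN2, the subunit that holds the Sm proteins, had 26.1 and 27.5 CPM in the knockout and 27.9 and 22.7 CPM in parental cells, a log2 fold change of 0.08 ± 0.17 (SE, adjusted p = 0.879). SMN1, GEMIN2 and GEMIN5 overlapped between the groups.

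These small differences moved with the choice of parental library. Without parental replicate 1, GEMIN5 (log2 fold change 0.51, adjusted p = 0.0131) and COIL (0.37, adjusted p = 0.044) were called higher, where 5.71% of all genes were called higher. Without parental replicate 2, GEMIN5 was at -0.02 and COIL at 0.03, and NOLC1 was called lower (-0.38, adjusted p = 0.0168), where 4.94% of all genes were called lower. No factor was called without a knockout library.

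**Figure D4:**
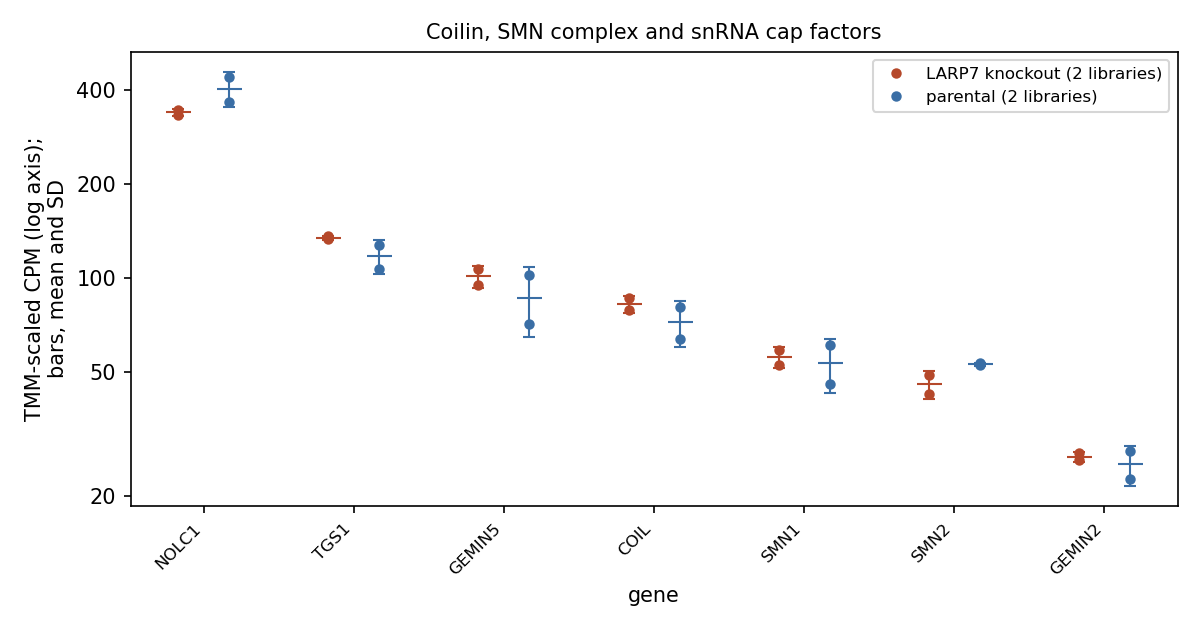
Level of the 7 factor genes in TMM-scaled CPM on a log axis. Points are the 2 LARP7 knockout libraries, left, and the 2 parental libraries, right; the horizontal mark and bars are the mean and SD. The groups overlap in COIL, SMN1, GEMIN2 and GEMIN5, both knockout libraries are lower in NOLC1 and SMN2, and both are higher in TGS1. Over all genes tested, both were lower in 22.7% and higher in 23.5%.

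The transcripts behind these genes were compared as shares of the TPM of their gene. Of the 7 factor genes 5 had enough transcripts for a usage test, and 0 were called, where 0.683% of all 9515 genes tested were; 0 had an unadjusted p under 0.05. Some minor transcripts differed in both libraries without a call. The retained-intron transcript GEMIN5-203 was listed at 0% and 0% in the knockout and at 9.61% and 12.1% in parental cells. The nonsense-mediated decay transcript TGS1-203 took 5.14% and 2.68% in the knockout and 10.6% and 8.81% in parental cells. GEMIN2-204, also a decay transcript, took 2.65% and 3.88% in the knockout and 8% and 8.94% in parental cells. These 3 transcripts were lower in each knockout library, while other minor transcripts of the same genes overlapped, such as TGS1-202 with 1.54% and 10.9% in the knockout and 6.62% and 15.9% in parental cells. A protein-coding transcript of 3932 bases of NOLC1 took 7.68% and 7.47% in the knockout and 12.3% and 14.1% in parental cells. SMN1-207 took 4.30% and 6.19% in the knockout and 15% and 14.2% in parental cells, and SMN2-201 took 8.83% and 5.35% in the knockout and 0.00382% and 0% in parental cells. The transcripts of the same lengths in the other SMN copy overlapped between the groups. SMN2-207 took 9.62% and 9.51% in the knockout and 0% and 12.9% in parental cells. SMN1-201 took 18.4% and 0% in the knockout and 7.08% and 0% in parental cells. The split of reads between the copies is uncertain, so these shares do not show a transcript change. GEMIN5 and COIL were not tested for usage, and all the transcripts named here were picked with their values known.

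Of 34 related genes, all tested, 0 were called and 1 had an unadjusted p under 0.05, with a median log2 fold change of 0.049, where 0.833% of all genes tested were called and 14.3% passed the unadjusted threshold. That gene was USPL1, a Cajal body SUMO isopeptidase that binds coilin, with 68.9 and 72.3 CPM in the knockout and 58.9 and 57.0 CPM in parental cells (log2 fold change 0.29 ± 0.12, SE, adjusted p = 0.335). Among 16 genes of snRNA transport and the Cajal body 12 had a log2 fold change above 0 and the median was 0.11. The next smallest p was that of ZPR1, an SMN-binding zinc finger protein, with 60.9 and 54.1 CPM in the knockout and 54.2 and 36.2 CPM in parental cells. Of the 6 other SMN complex subunits 5 were above 0 with a median of 0.14. The helicase subunit DDX20 had 0.25 ± 0.18 and GEMIN7 had 0.30 ± 0.24 (log2 fold changes with SE).

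None of the proteins that bind the scaRNAs themselves was called. Of 7 genes of H/ACA particles and scaRNA localisation 2 were above 0, with a median log2 fold change of -0.12. WRAP53 (TCAB1), which binds the CAB box and brings scaRNAs and telomerase to Cajal bodies, had 16.3 and 17.5 CPM in the knockout and 22.8 and 18.4 CPM in parental cells, a log2 fold change of -0.29 ± 0.19 (SE, adjusted p = 0.544). NAF1, an H/ACA assembly factor, had -0.14 ± 0.14 (log2 fold change, SE). Of the 4 core proteins of C/D particles 1 was above 0, with a median of -0.03. The kink-turn binding protein SNU13 had 69.7 and 68.3 CPM in the knockout and 89.5 and 72.5 CPM in parental cells, a log2 fold change of -0.23 ± 0.14 (SE, adjusted p = 0.502), and the methyltransferase FBL had one of -0.04 ± 0.12. TERC, the telomerase RNA and an H/ACA scaRNA without the SCARNA symbol, had 10.6 and 10.7 CPM in the knockout and 9.83 and 6.27 CPM in parental cells, a log2 fold change of 0.39 ± 0.27 (SE, adjusted p = 0.565). Both knockout libraries of TERC were above both parental ones, which held for 23.5% of all genes tested. Those of WRAP53, NAF1 and SNU13 were below, which held for 22.7% of all genes tested. Most of the 34 related genes overlapped between the groups.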

How the data were processed

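Per the file headers, the deposited tables give for each transcript the authors' estimated counts, TPM and effective length. Per the submitters' processing notes, the build was hg38 and the tools included Salmon 1.6, edgeR 3.24.3, cutadapt 1.6, SAMtools 1.3.1, STAR 2.5.3a, Picard and R (3.5.1, 3.3.3). Which step each tool did, and with which strand and annotation, is not given in the sources used here. Salmon divides reads among similar transcripts, an error the tests do not see. TRIzol extraction and the Ovation SoLo library kit are given per the labels. A source field calls the knockout wildtype; its title and genotype field were used.

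Transcripts were joined to GENCODE v29 (GRCh38): 197318 of 198002 matched, and the 684 others took 0.0631 to 0.0711% of all reads. For each gene the estimated counts were added up, rounded and tested with edgeR 4.0.16 (filterByExpr, TMM, quasi-likelihood F test) in R 4.3.3. The SE is the log2 fold change over the root of F. Alternatives were DESeq2 1.42.0, limma 3.58.1 voom, other scalings and filters, a length offset, a replicate block, each library left out and, chosen after seeing the data, sums over overlapping transcripts at a locus. Usage was tested with diffSpliceDGE and Simes p. Scripts were tested on simulated data. 7SK reads lie on the second of 2 entries of that gene.

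The members and lists were chosen with earlier results of these data known. Members with at least 100 reads in every library are given in full, and of each related list the 2 genes of smallest p.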

Additional observations from a re-analysis of the deposited data

How the results depend on the processing

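Precision is limited by 2 libraries a group. Of 524 single-gene values recomputed for 35 genes, 449 kept their direction and side of the threshold, 46 passed the threshold with the same direction and 29 turned direction. Among these genes 7SK alone was called with all libraries, so the other values had no call to lose. The 0 called scaRNA genes became 1 with library size alone, 1 with loci of 1 symbol summed, 1 with limma voom, 5 without a filter and 5 with DESeq2; the cause was not tested. With 1 library left out the called scaRNA genes numbered 0 to 9, factors 0 to 2, related genes 0 to 7, host genes 0 to 1 and all genes 200 to 2265, against 154. All genes called were 831 without a filter, 91 with the length offset and 463 with DESeq2. A replicate block gave 7 scaRNA genes and 1656 in all; the pairs share only a number (same-numbered deviations correlated at 0.267 over 10605 genes).

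Scaling by small RNA genes moved the median of all genes by 1.00 on the log2 scale and turned NOLC1 (0.70), SMN2 (0.76), SCARNA1 (0.20), SNU13 (0.71), WRAP53 (0.65), NAF1 (0.83), FBL (0.96), PHB2 (0.83), SNHG10 (0.79), SEC14L1 (0.94) and LARP7 (0.30); the 8 long scaRNAs were then at 1.41 to 1.89. The length offset turned GEMIN5 (-0.012), NCAPD2 (-0.062) and ATG16L1 (-0.020), library size alone FBL (0.055) and SEC14L1 (0.076), loci of 1 symbol summed SMN1 with SMN2 (-0.072) and the locus sum SCARNA16 (-0.025). With 1 library left out the log2 fold change ran from -0.02 to 0.51 for GEMIN5, -0.06 to 0.24 for GEMIN2, -0.13 to 0.28 for SMN1, -0.36 to 0.59 for SCARNA16, -0.01 to 0.70 for GEMIN7, -0.07 to 0.002 for FBL, -0.12 to 0.36 for KPNA4, -0.25 to 0.003 for PHB2 and -0.091 to 0.053 for SEC14L1.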
